A study of Mus musculus with 7 samples.

Results

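The genes described here encode the nuclear subunits of respiratory complexes I to IV. They were chosen by symbol alone: Ndufa, Ndufb, Ndufc, Ndufs or Ndufv followed only by digits, Sdha to Sdhd, any symbol that starts with Uqcr, and Cox4 to Cox8 with an isoform letter or digit. There were 66 such genes among the 37620 in the count tables, after 3 pseudogenes had been left out. Complex I had 11 Ndufs and Ndufv genes and 25 Ndufa, Ndufb and Ndufc genes, complex II 4 genes, complex III 8 and complex IV 18.

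RNA sequencing had been done on 7 mouse brain tumours, 4 labelled GSC1 and 3 labelled GSC2, which the series calls independent. GSC1 cells carried lgT/Ras. GSC2 cells carried shp53, Nf1-/- and CDK4. Both were tumour cells derived from neural stem cells (NSC) of the subventricular zone, kept in NSC culture for 10 to 15 passages and then placed in the brains of nude mice, which lack mature T cells and keep their other immune cells. Each combination of changes is present in 1 line, so a difference between the groups is one between lines, and its p-value measures only the spread between tumours of these lines. The sources used here give neither the ages of the mice nor the promoter behind each change.

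The respiratory chain sits in the inner mitochondrial membrane and passes electrons from NADH and succinate to oxygen. Complex I takes electrons from NADH and complex II takes them from succinate. Both reduce ubiquinone, complex III hands the electrons on to cytochrome c, and complex IV reduces oxygen to water. Complexes I, III and IV pump protons and hold subunits from both the nuclear and the mitochondrial genome, whereas complex II is wholly nuclear. Neurons in the adult brain depend heavily on this route for ATP.

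The promoters of these genes are known for sites of NRF1, of ETS factors such as GABP, and of YY1. Of the 66 genes, 53 had a promoter in RefSeq's table for GRCm38.p6, taken as 250 bases before to 50 after the start. The patterns are short cores, used after longer forms had been searched first, so the shares below are a description. The NRF1 pattern CGCANGCG was present on either strand in 16 of the 53, 30.2% against 9.22% of all 27025 genes with such a promoter. The ETS pattern CCGGAAG was present in 11, 20.8% against 9.93%. The YY1 pattern ATGGCGGC was in 6 (11.3% against 2.6%), and TATAAA was in 6 (11.3% against 15.7%). A match is a string of letters and not a measured binding site, and no binding was measured here. The 150 bases before the start are printed for 5 genes, 5′ to 3′ on the gene's strand, with matches in capitals. Sdha and Cox6a1 show the NRF1 pattern, Cox6a1 and Uqcrh the ETS pattern in reverse, Ndufa4 has the steepest relation to brain content among the subunits that passed, and Cox8b is an isoform gene known from muscle. No matches overlapped in these windows.
Sdha (chr13:74350241-74350390, minus strand): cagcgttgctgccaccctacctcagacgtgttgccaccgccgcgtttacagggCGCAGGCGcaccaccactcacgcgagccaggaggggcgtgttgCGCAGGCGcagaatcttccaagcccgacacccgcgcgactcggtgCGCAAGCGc
Cox6a1 (chr5:115348959-115349108, minus strand): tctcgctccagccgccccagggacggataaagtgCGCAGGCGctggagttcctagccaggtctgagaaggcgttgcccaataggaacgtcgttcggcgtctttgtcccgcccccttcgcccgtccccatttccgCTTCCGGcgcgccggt
Uqcrh (chr4:116075071-116075220, minus strand): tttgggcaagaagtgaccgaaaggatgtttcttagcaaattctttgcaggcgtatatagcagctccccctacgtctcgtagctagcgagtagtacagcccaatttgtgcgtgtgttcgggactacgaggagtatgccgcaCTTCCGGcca
Ndufa4 (chr6:11907451-11907600, minus strand): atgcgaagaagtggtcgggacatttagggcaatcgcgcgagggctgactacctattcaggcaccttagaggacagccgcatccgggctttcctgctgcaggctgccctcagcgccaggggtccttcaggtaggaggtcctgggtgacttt
Cox8b (chr7:140900447-140900596, minus strand): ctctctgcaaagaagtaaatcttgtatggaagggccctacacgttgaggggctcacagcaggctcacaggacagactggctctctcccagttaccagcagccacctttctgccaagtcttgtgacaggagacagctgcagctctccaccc
Sdha held 3 NRF1 matches and Cox6a1 held 1 of each pattern. Ndufa4 and Cox8b had no match in the bases shown.

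Each tumour gave 1 library, with 18643155 to 32643408 reads counted on genes. Levels are given as CPM, the reads of a gene scaled to the size of its library after TMM adjustment. The 66 genes took 0.571, 0.445, 1.12 and 1.07% of the gene reads in GSC1-1 to GSC1-4, and 0.538, 0.612 and 0.893% in GSC2-1 to GSC2-3. Genes of normal brain cells differed widely between tumours and are summarised as a brain score. It is the average of the mean log2 CPM of 20 neuron genes and that of 16 mature oligodendrocyte genes. None of these genes is among the 66. The score was 5.63, 4.41, 8.0 and 7.32 in GSC1-1 to GSC1-4 and 5.85, 7.32 and 7.04 in GSC2-1 to GSC2-3. All 12 markers of tumour stem and progenitor cells had reads in every tumour, with a summed level of 2640 to 5468 CPM in GSC1 and 3772 to 4592 CPM in GSC2. In bulk tissue, fewer cells of a type and less RNA per cell cannot be told apart.

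Libraries stood apart in another way that touches every result below. In GSC1-3, GSC1-4 and GSC2-3, genes with transcripts of at least 8000 bases lay 0.44, 0.37 and 0.69 lower on the log2 scale than genes of at most 2000 bases, relative to the mean of the tumours, and in the other 4 tumours they lay 0.02 to 0.64 higher. The first 3 are called short-biased. The subunit genes are short, with a median transcript of 764 bases against 2947 over all 16068 genes tested. GSC1-3 and GSC1-4 are called hindbrain-rich, since Hoxb5, a gene of the hindbrain, was at 209 and 49.6 CPM in them and at most 0.05 CPM in the other tumours. The counts and medians of the subunit genes are therefore given with and without these libraries. Short bias and brain content overlap in these tumours and cannot be told apart in full.

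The summed level of the 66 genes was 5402, 4432, 12305 and 11053 CPM in GSC1-1 to GSC1-4. It was 5107, 5804 and 9361 CPM in GSC2-1 to GSC2-3. GSC1-3, GSC1-4 and GSC2-3 were high, the other 4 were low and close together, and the lines overlapped. The highest tumour was 2.78-fold above the lowest. GSC1-3 had the highest level of 51 of the 64 genes that passed the filter on low counts, and GSC1-2 the lowest level of 50. In 58 of the 64, all 3 short-biased tumours lay above all 4 others, a pattern found in 15.9% of all genes tested. Among the 59 genes with a mean of at least 20 CPM, the ratio of highest to lowest tumour ran from 1.49 for Ndufs7 to 6.30 for Ndufa4, with a median of 2.85. The 2 genes below the filter were Cox8c, with 0 reads in every tumour, and Cox7b2, with 23 reads in all.

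**Figure D1:**
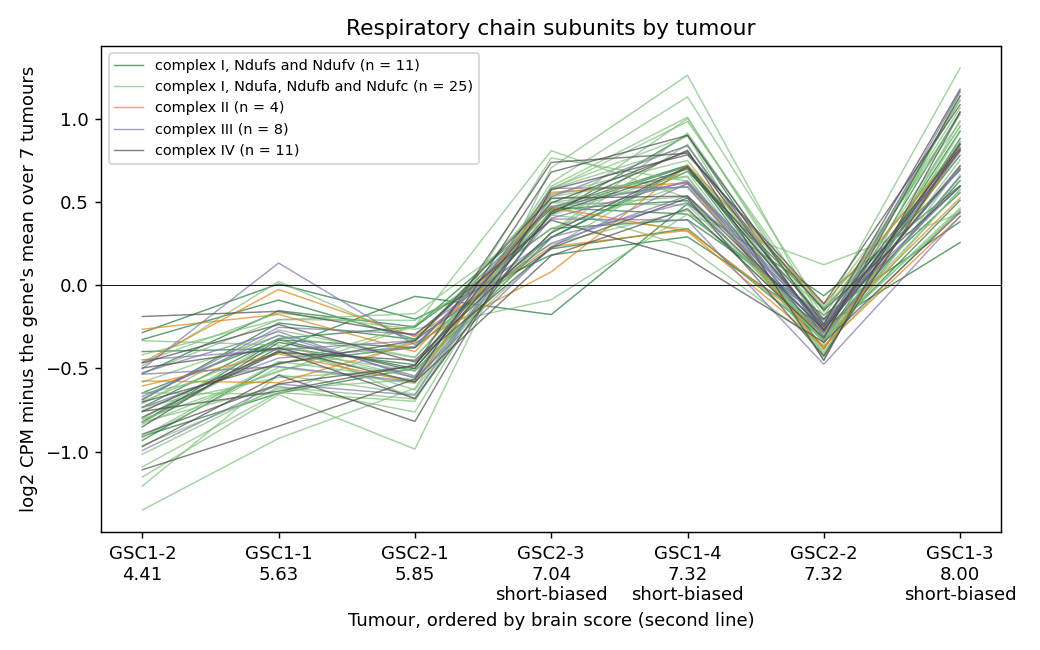
Level of each subunit gene in each tumour, as log2 CPM minus the gene's mean over the 7 tumours, with 1 line per gene for the 59 genes with a mean of at least 20 CPM, coloured by complex. Tumours are ordered by brain score, written under each name. The 3 short-biased tumours lie above the mean for nearly all genes, and GSC2-2 lies low although its score of 7.32 equals that of GSC1-4.

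GSC1-4 and GSC2-2 had the same brain score, 7.32, and were compared as single tumours. The parts of the score differed, with neuron means of 7.60 and 7.31 log2 CPM and mature oligodendrocyte means of 7.03 and 7.32. Astrocyte genes, outside the score, had means of 8.99 and 8.23. GSC1-4 was short-biased, whereas in GSC2-2 long genes lay 0.64 higher than short ones. Of the 64 genes, 62 were higher in GSC1-4, with a median ratio of 1.86 against 0.989 over all genes. Within line GSC2, the short-biased GSC2-3 had a lower score than GSC2-2, 7.04, and 60 of 64 genes were higher in it, with a median ratio of 1.66 against 0.985 over all genes. Neither GSC2-2 nor GSC2-1 is short-biased, and they differ in score by more than 1 unit. Long genes lay 0.64 higher than short ones in GSC2-2 and 0.37 higher in GSC2-1, so the pair was unequal in length bias too. Between GSC2-2 and GSC2-1, 52 of 64 genes were higher in GSC2-2, with a median ratio of 1.17 against 0.976 over all genes. These are values of single libraries with no replicate check.

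All 11 Ndufs and Ndufv genes of complex I had reads in every tumour. They encode the NADH-oxidising and ubiquinone-reducing arms of the complex and some accessory subunits. Their RNA summed to 922, 747, 1762 and 1613 CPM in GSC1-1 to GSC1-4 and 884, 921 and 1351 CPM in GSC2-1 to GSC2-3. Per kilobase of transcript, Ndufv3, an accessory subunit of the NADH-binding arm, was lowest at 27.7 CPM per kb over all tumours. Ndufv1, which binds NADH and the flavin, was at 134, 108, 310 and 275 CPM in GSC1-1 to GSC1-4 and 118, 129 and 205 CPM in GSC2-1 to GSC2-3. Its low values in GSC1-1, GSC1-2, GSC2-1 and GSC2-2 lay within 108 and 134 CPM, whatever the line. Ndufs1, the large iron-sulfur subunit, was at 94.9, 93.8, 187 and 174 CPM in GSC1 and 118, 118 and 109 CPM in GSC2. For Ndufs1, unlike Ndufv1, GSC2-3 was not above the other GSC2 tumours. Ndufs7, a core iron-sulfur subunit, varied least, at 86.4, 70.6, 103 and 105 CPM in GSC1 and 74.7, 72.4 and 97.5 CPM in GSC2.

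The Ndufa, Ndufb and Ndufc genes encode accessory subunits that surround the core, and they summed to 1520, 1208, 3686 and 3347 CPM in GSC1 and 1466, 1682 and 2846 CPM in GSC2. Ndufa4 was named as a complex I subunit and later assigned to complex IV. It was the highest of the group per kilobase, at 268 CPM per kb, and the most variable. Its level was 69.8, 51.8, 326 and 290 CPM in GSC1-1 to GSC1-4, with a mean of 184 ± 144 (SD, n = 4), and 86.0, 118 and 203 CPM in GSC2-1 to GSC2-3, with a mean of 136 ± 60.2 (SD, n = 3). The 2 low GSC1 tumours lay below all GSC2 tumours and the 2 high ones lay above them. Ndufa5, an accessory subunit of the arm that protrudes into the matrix, was at 25.9, 16.3, 76.4 and 74.3 CPM in GSC1 and 23.9, 33.1 and 56.0 CPM in GSC2. Ndufb8, an accessory subunit of the membrane arm, was at 112, 83.1, 292 and 264 CPM in GSC1 and 103, 110 and 183 CPM in GSC2. Ndufb10 and Ndufb6, also of the membrane arm, spanned 42.6 to 155 and 28.0 to 111 CPM, and both were lowest in GSC1-2 and highest in GSC1-3. Ndufb2 had the lowest level of the group per kilobase, 13.1 CPM per kb over an annotated transcript of 4371 bases.

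Complex II has 4 subunits, and their summed level was 562, 514, 1200 and 1095 CPM in GSC1 and 554, 620 and 893 CPM in GSC2. Sdha, the flavoprotein that oxidises succinate, was at 223, 225, 592 and 552 CPM in GSC1, with a mean of 398 ± 201 (SD, n = 4), and at 264, 310 and 354 CPM in GSC2, with a mean of 309 ± 45.3 (SD, n = 3). The GSC2 tumours lay inside the gap between the low and the high GSC1 tumours. Sdhb, the iron-sulfur subunit, was at 107, 79.2, 157 and 137 CPM in GSC1 and 88.2, 89.7 and 128 CPM in GSC2. Sdhc, a membrane anchor, was at 124, 108, 290 and 253 CPM in GSC1 and 110, 126 and 243 CPM in GSC2. Per kilobase the order was led by Sdha, at 124 CPM per kb, and Sdhc was lowest at 56.5. Sdhd, the other anchor, was at 108, 101, 162 and 152 CPM in GSC1 and 92.1, 94.4 and 168 CPM in GSC2.

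The 8 complex III genes summed to 873, 715, 1801 and 1622 CPM in GSC1 and 778, 884 and 1386 CPM in GSC2. Uqcrh, the hinge protein that helps cytochrome c bind, was at 83.6, 63.4, 283 and 226 CPM in GSC1 and 79.8, 103 and 182 CPM in GSC2. It was the highest of the complex per kilobase, at 267 CPM per kb, and varied most between tumours, 4.46-fold. Uqcrfs1, the Rieske iron-sulfur protein that passes electrons onward, was lowest per kilobase at 94.0. Uqcrc1, a core protein without a redox group, was at 207, 174, 437 and 383 CPM in GSC1 and 170, 207 and 294 CPM in GSC2. Uqcrq varied less, from 100 CPM in GSC1-2 to 190 CPM in GSC1-3. The lines overlapped for all 8 genes.

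Complex IV genes summed to 1524, 1249, 3857 and 3376 CPM in GSC1 and 1425, 1698 and 2885 CPM in GSC2. Cox4i1, the ubiquitous form of the subunit that binds ATP, was the most abundant gene of all 66 per kilobase, at 739 CPM per kb. Its level was 382, 297, 1033 and 882 CPM in GSC1-1 to GSC1-4, with a mean of 649 ± 364 (SD, n = 4), and 314, 368 and 682 CPM in GSC2-1 to GSC2-3, with a mean of 454 ± 199 (SD, n = 3). Cox6a1, the liver-type form of a regulatory subunit, was at 137, 102, 422 and 343 CPM in GSC1 and 113, 185 and 296 CPM in GSC2. Cox6c was at 81.7, 68.1, 332 and 274 CPM in GSC1 and 99.3, 125 and 235 CPM in GSC2. For these 3 genes GSC1-3 was highest, GSC1-4 was next and GSC1-2 was lowest. Cox5a and Cox7b, also structural subunits, spanned 125 to 309 and 74.8 to 246 CPM. Cox6b1, which faces the side where cytochrome c docks, spanned 88.3 to 271 CPM.

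No subunit gene passed the test for a difference between the lines. With edgeR's quasi-likelihood test and Benjamini-Hochberg adjustment over all genes, 0 of 64 passed the threshold of 0.05, as did 0% of the 16068 genes tested. The smallest unadjusted p of the 64 was 0.108, for Cox6a2. At an unadjusted p under 0.05 the count was 0 of 64 and 677 of 16068 (4.21%), and DESeq2 and limma-voom also called 0 of 64 (1.19 and 0.00622% of all genes). Log2 fold changes are GSC2 minus GSC1: 61 of the 64 were below 0 (53.7% of all genes were), with a median of -0.27 against -0.03 over all genes. The values above 0 were those of Cox8b, Cox6a2 and Ndufc2. The lines overlapped in all 64, and were free of overlap in 5.58% of all genes.

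By complex the median line difference was -0.25 for Ndufs and Ndufv, -0.29 for Ndufa, Ndufb and Ndufc, -0.26 for complex II, -0.24 for complex III and -0.30 for complex IV, with 0 calls in each. Ndufv1 had a log2 fold change of -0.46 (SE 0.44) and Ndufb8 one of -0.51 (SE 0.50). For Sdha the value was -0.36 (SE 0.42), for Uqcrc1 -0.43 (SE 0.40) and for Cox7b -0.54 (SE 0.45). Each error is about as large as the difference itself. The sign of the median rested on the tumours included. Without the 3 short-biased tumours, 2 GSC1 and 2 GSC2 tumours remained and the median was 0.22. Without both hindbrain-rich tumours the median was 0.49. In these fits again 0 of 64 passed (0.348 and 0.272% of all genes). In both fits the GSC1 tumours left were GSC1-1 and GSC1-2, with brain scores of 5.63 and 4.41. Every GSC2 tumour left had a higher score, 5.85 or more, so line and score cannot be told apart there. The fit without the hindbrain-rich tumours also kept GSC2-3, the only short-biased tumour left. Line and length bias cannot be told apart in full in that fit. With 1 tumour left out, the median ran from -0.59 without GSC2-3, over -0.48 without GSC1-2 and -0.43 without GSC1-1, to -0.17 without GSC2-2, -0.12 without GSC1-4, -0.11 without GSC2-1 and -0.07 without GSC1-3. A length trend fitted to each library left it at -0.32, while the median of all genes moved to -0.12.

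**Figure D2:**
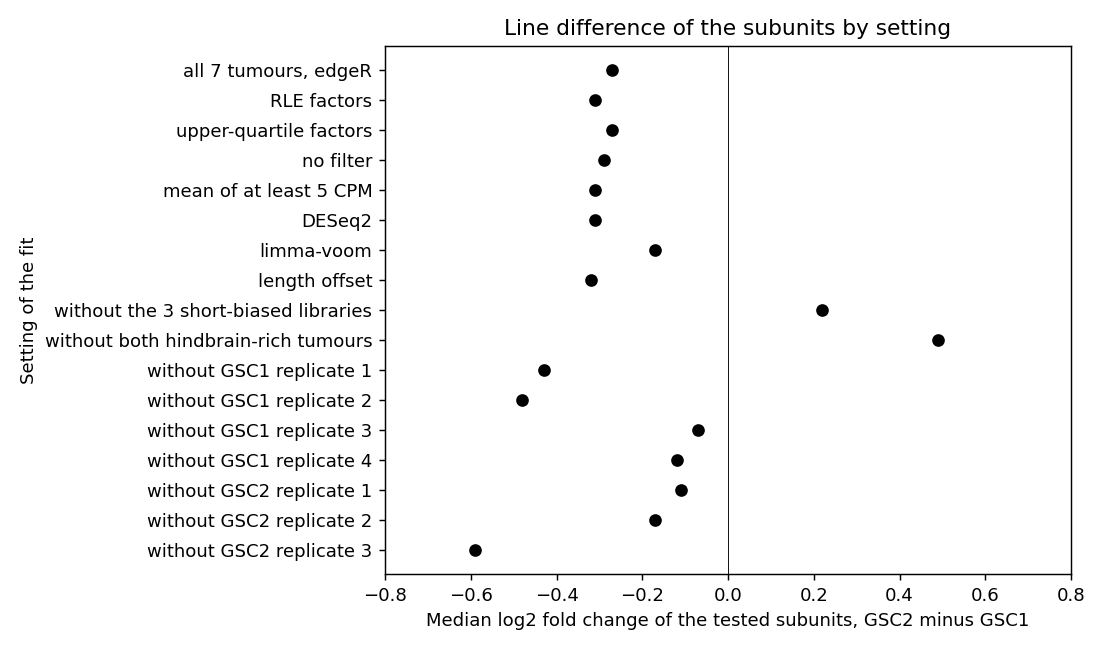
Median log2 fold change of the 64 tested subunit genes, GSC2 minus GSC1, with 1 point per setting of the fit without a replicate block and a vertical line at 0. The points lie from -0.59 to -0.07 for fits on 6 or 7 tumours and at 0.22 and 0.49 for the fits without the short-biased and without the hindbrain-rich tumours.

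Subunit genes of all 4 complexes rose with the brain score. The slope is the log2 change in a gene per unit of score. Of the 64 genes, 50 passed and all 50 rose, while 20.2% of all genes tested rose and 17.3% fell. The median slope of the 64 was 0.42 against 0.01 over all genes, and 63 of 64 slopes were above 0, as were 50.6% of all. The genes that rose were 9 of 11 Ndufs and Ndufv genes, 22 of 25 Ndufa, Ndufb and Ndufc genes, 2 of 4 in complex II, 7 of 8 in complex III and 10 of 16 tested in complex IV. The median slopes in that order were 0.37, 0.46, 0.32, 0.37 and 0.49.

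Ndufa4 rose by 0.77 log2 per unit (SE 0.13, edgeR quasi-likelihood adjusted p = 0.0048), the steepest slope among those that passed. Ndufa5 and Ndufb5 rose by 0.65 and 0.58. Among Ndufs and Ndufv genes the slopes were 0.55 for Ndufs5, 0.50 for Ndufv2 and 0.42 for Ndufv3. In complex II, Sdha rose by 0.40 and Sdhc by 0.41, and Sdhb, with 0.23 and an edgeR adjusted p of 0.058, did not pass but did so in 6 alternatives, among them DESeq2 and the fit without GSC2-2. In complex III, Uqcrh rose by 0.60, Uqcr10 by 0.41 and Uqcrb by 0.35. In complex IV, Cox6c rose by 0.66, Cox6a1 by 0.59, Cox4i1 by 0.49 and Cox6b1 by 0.45.

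Genes that did not pass included members of each complex. Ndufs7 had a slope of 0.14 (SE 0.07), Sdhd one of 0.20 and Uqcrq one of 0.21. Cox7a2l, which takes part in joining complexes III and IV into supercomplexes, had a slope of 0.16 (SE 0.09). Its level was 125, 122, 189 and 156 CPM in GSC1 and 113, 110 and 183 CPM in GSC2, so GSC2-2, of high score, had the lowest value. Also below the threshold were Ndufa2, Ndufa6, Ndufa12 and Sdhb, and the low-level isoform genes Cox4i2, Cox6a2, Cox6b2, Cox7a1 and Cox8b.

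The calls changed with the tumours included. Without the 3 short-biased tumours, 4 tumours were left, the median slope was 0.16 and 8.84% of all genes rose. Of the 64 genes 1 passed, Ndufa4 (slope 0.43, edgeR quasi-likelihood adjusted p = 0.022). Without both hindbrain-rich tumours the median slope was 0.30, and 7.76% of all genes rose. Again Ndufa4 alone of the 64 passed (slope 0.59, edgeR quasi-likelihood adjusted p = 0.040). That fit kept the short-biased GSC2-3. With a length trend fitted to each library, 40 of 64 rose, all of them among the 50, with a median of 0.29 and 18.5% of all genes rising. That trend also moved the split over all genes, from 3247 higher and 2776 lower to 2968 higher and 4257 lower. Leaving out single tumours gave 15 to 57 genes that rose. There were 15 without GSC1-2 (10% of all genes), 15 without GSC1-3 (13.3%) and 31 without GSC1-1 (14.2%). There were 35 without GSC2-1 (15.9%), 37 without GSC1-4 (16.4%), 48 without GSC2-3 (19.4%) and 57 without GSC2-2 (21.4%).

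The slopes can be set beside transcript length as a description. Of the genes with a transcript under 1000 bases, 31 of 39 rose, with a median slope of 0.47. Of the others, 19 of 25 rose, with a median of 0.37. Length is that of a single annotated transcript per gene, the longest principal one where there is any. It was 4371 bases for Ndufb2 and 3171 for Sdhc. The split by length and the levels per kilobase depend on that choice. Across the 64 genes, which share all 7 libraries, Spearman's rho between slope and transcript length was -0.36, and -0.27 once a length trend had been fitted to each library.

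**Figure D3:**
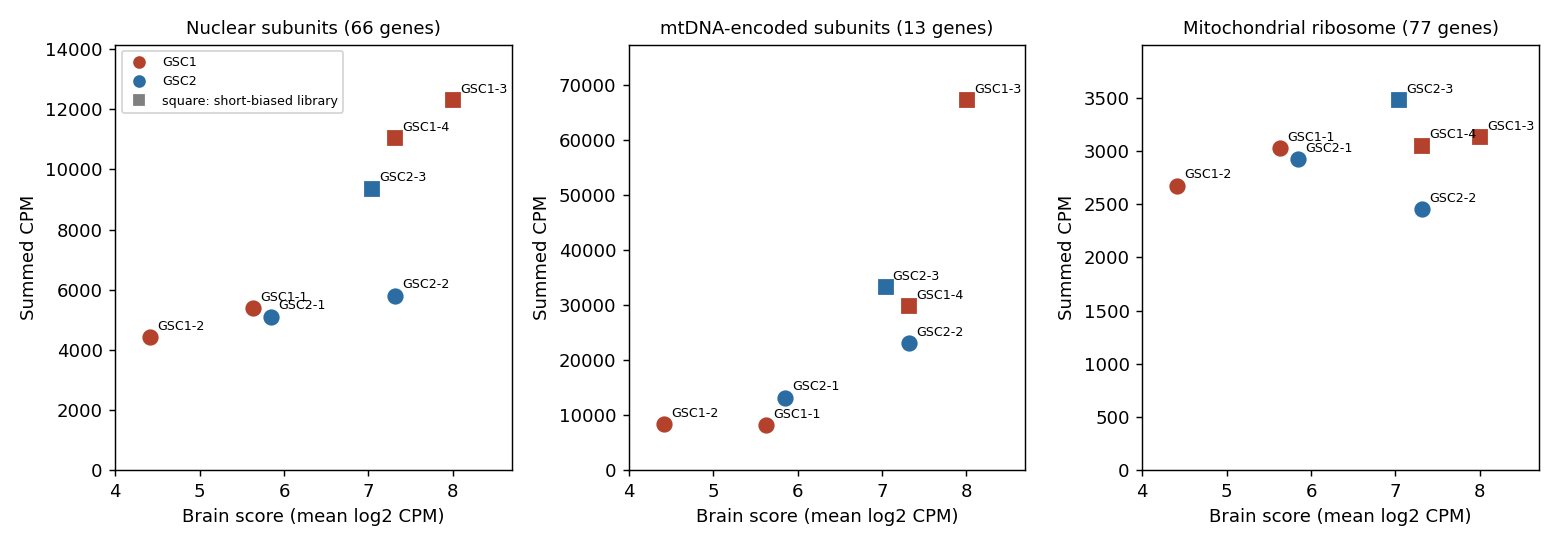
Summed CPM (vertical axis, from 0) against the brain score (mean log2 CPM) in each tumour, for the 66 nuclear subunit genes, the 13 subunit genes of mitochondrial DNA and 77 genes of the mitochondrial ribosome. Red is GSC1 and blue is GSC2, and squares are short-biased tumours. GSC1-4 and GSC2-2 share a score of 7.32 and differ in the nuclear subunits, at 11053 and 5804 CPM, more than in the mitochondrial ribosome, at 3049 and 2454 CPM.

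Several complex IV subunits exist as a common form and a tissue-restricted form. The common forms dominated in every tumour. Per length, Cox4i2, the lung-type partner of Cox4i1, made up 0.185 to 0.505% of the pair. Cox6a2, known from heart and muscle, made up 0.103 to 3.61% of its pair with Cox6a1, and Cox6b2, known from testis, made up 1.45 to 6.09% with Cox6b1. Cox7a1, another heart and muscle form, made up 0.795 to 2.92% of its pair with Cox7a2, and Cox8b 0 to 0.857% with Cox8a. Among the common forms, Cox7a2 was at 76.4, 70.2, 214 and 207 CPM in GSC1 and 85.2, 98.4 and 167 CPM in GSC2, and rose with the score by 0.48. Cox8a was at 162, 131, 369 and 423 CPM in GSC1 and 175, 220 and 408 CPM in GSC2, and rose by 0.49. Cox7b rose by 0.41, and its testis form Cox7b2 stayed at or below 0.28 CPM.

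Cox6a2 had the one slope below 0. Its level was 4.43, 1.80, 0.52 and 1.48 CPM in GSC1-1 to GSC1-4 and 5.04, 6.17 and 3.41 CPM in GSC2-1 to GSC2-3. GSC1-3, highest for most subunits, was lowest here, and GSC1-1 lay within the GSC2 range. Its line difference was 1.24 (SE 0.68) and its slope was -0.16 (SE 0.39), and neither passed. The slope was 0.59 without the short-biased tumours and 0.42 without the hindbrain-rich ones. An exon of Itgad overlaps it by 70 bases on the other strand. Markers of skeletal and heart muscle were near 0, with the 12 summing to 2.98 to 10.3 CPM in GSC1 and 4.22 to 11.8 CPM in GSC2 and 2 to 5 of them without reads in a tumour. Actc1 had reads in GSC1-3 alone, and Myh2 in GSC1-1 alone.

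Cox8b was at 0, 0, 0.24 and 1.90 CPM in GSC1-1 to GSC1-4 and at 0.41, 1.05 and 2.31 CPM in GSC2-1 to GSC2-3, from 130 reads in all. Markers of choroid plexus, the epithelium that makes cerebrospinal fluid, were unevenly present too. The 10 markers summed to 83.4, 141, 94.5 and 9149 CPM in GSC1-1 to GSC1-4 and to 2214, 2955 and 5123 CPM in GSC2-1 to GSC2-3, and Ttr, the most abundant of them in the last 4, had 0.55 to 28.7 CPM in the first 3 GSC1 tumours and 2026 to 8165 CPM in the others. The sums in the first 3 GSC1 tumours came mostly from Aqp1, at 76.2, 136 and 47.3 CPM. All 4 tumours with Ttr above 2000 CPM had more Cox8b than the other 3, though GSC2-1 had only 8 reads against 6 in GSC1-3. GSC1-4 had more of the choroid plexus markers than GSC2-3 and less Cox8b. The part of choroid plexus in the Cox8b level was not tested. Cox6b2 was at 1.94, 2.98, 3.78 and 15.4 CPM in GSC1 and 2.54, 3.89 and 7.72 CPM in GSC2, highest in GSC1-4. Cox7a1 was at 1.04, 1.03, 3.14 and 3.29 CPM in GSC1 and 0.41, 1.30 and 3.01 CPM in GSC2. Cox4i2 was at 0.72, 0.84, 3.34 and 1.57 CPM in GSC1 and 1.37, 1.79 and 1.55 CPM in GSC2. None of these 4 passed for line or score. The slope of Cox4i2 was 0.51 (edgeR quasi-likelihood adjusted p = 0.052) and passed in 5 alternatives, and that of Cox8b passed in 2, with DESeq2 and, at 2.49, without GSC1-3.

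**Figure D4:**
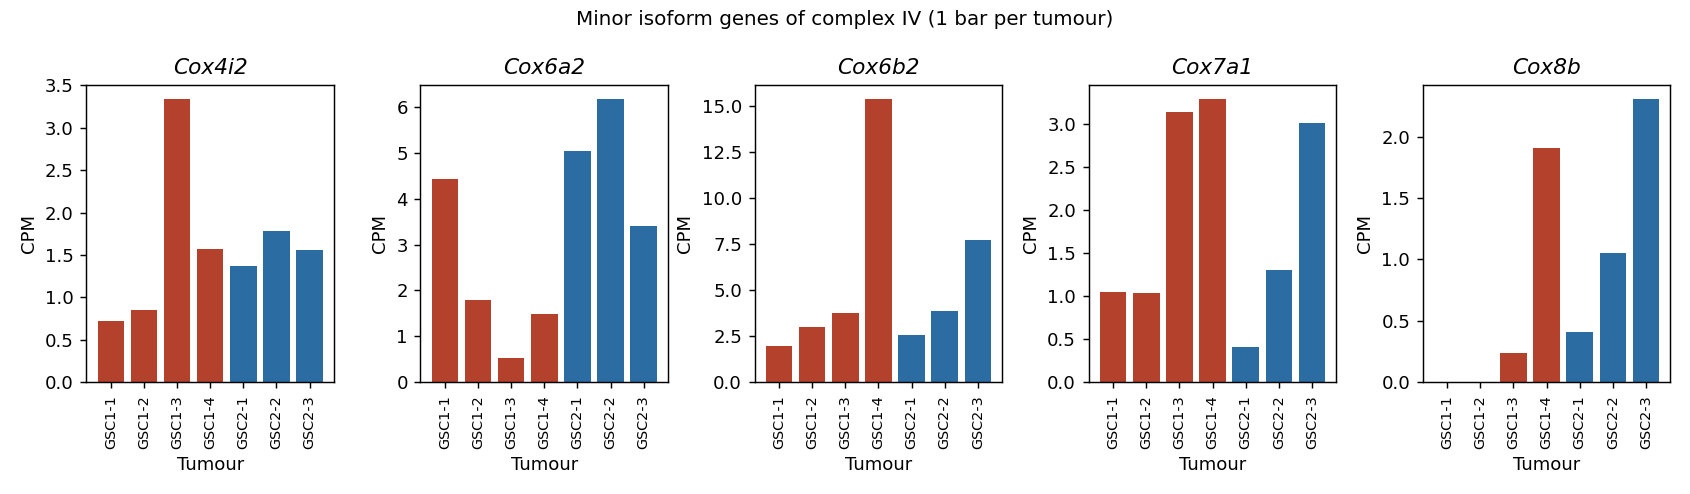
CPM of 5 tissue-restricted isoform genes of complex IV, with 1 bar per tumour from 0, red for GSC1 and blue for GSC2, and a separate vertical scale in each panel. Cox6a2 is lowest in GSC1-3, at 0.52 CPM, and Cox8b is at 0 in GSC1-1 and GSC1-2.

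Other genes of the pathway were taken from lists that were chosen with earlier results of these data known. Of the 13 subunits encoded by mitochondrial DNA, 12 were tested. Of them 11 rose with the score (20.2% of all genes did), with a median slope of 0.86. Their summed level was 8174, 8421, 67196 and 29799 CPM in GSC1-1 to GSC1-4 and 13196, 23028 and 33207 CPM in GSC2-1 to GSC2-3. GSC2-2 stood well above GSC2-1, whereas for the nuclear subunits the same tumours gave 5804 and 5107 CPM. Of the 12, 7 rose without the short-biased tumours (median 0.54), as did 8.84% of all genes. Without the hindbrain-rich ones 6 rose (median 0.73), as did 7.76% of all genes. The complex I subunits mt-Nd1 and mt-Nd2 rose by 1.05 and 0.95, and mt-Nd1 was at 497, 399, 5673 and 2123 CPM in GSC1 and 874, 1946 and 2518 CPM in GSC2. Nuclear copies of mitochondrial DNA share sequence with these genes, so their counts are uncertain. For line, 0 of 12 passed.

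ATP synthase, which uses the proton gradient, had 11 of 15 genes that rose, with a median slope of 0.36, led by Atp5k (0.57), Atp5g1 (0.52) and Atp5j (0.41). Without the short-biased and without the hindbrain-rich tumours 0 of 15 passed. In the citric acid cycle, which feeds the chain, 8 of 14 rose, among them Suclg1 (0.48), Sucla2 (0.42) and Idh3a (0.36). Of the assembly factors, 3 of 16 rose for complex I, 2 of 10 for complexes II and III and 5 of 22 for complex IV, with medians of 0.14, 0.17 and 0.10, shares close to the 20.2% of all genes that rose. Those of complex I were Ecsit (0.37), Ndufaf5 (0.45) and Ndufaf3 (0.40). Those of complexes II and III were Sdhaf4 (0.43) and Uqcc1 (0.36). Among those of complex IV were Surf1 (0.39), Cox14 (0.44) and Pet100 (0.32). Electron carriers and subunits outside the symbol rule had 2 of 16 that rose, Cycs (0.32), the cytochrome c gene, and Coq7 (0.43), an enzyme of ubiquinone synthesis. In the citric acid cycle, assembly and carrier lists, 0 genes passed without the short-biased tumours and 0 without the hindbrain-rich ones.

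Among 15 regulators of mitochondrial biogenesis, 8 fell and 2 rose, with a median slope of -0.22, beside 17.3% of all genes that fell. Yy1 fell by 0.47, Polg, the mitochondrial DNA polymerase, fell by 0.44, and Pprc1, a coactivator, fell by 0.69. Pprc1 was at 87.3, 114, 18.4 and 29.4 CPM in GSC1 and 95.1, 55.7 and 37.1 CPM in GSC2, so it was lowest in the tumours where most subunits were highest. Nrf1 and Gabpa, whose proteins bind the NRF1 and ETS patterns above, fell by 0.36 and 0.29. Ppargc1a, another coactivator, rose by 0.59, and Esrra, a nuclear receptor known to act on respiratory genes, rose by 0.25. Of the 15, 1 fell and 1 rose without the short-biased tumours, and 1 fell and 0 rose without the hindbrain-rich ones. Markers of mitosis fell with the score too, 12 of 12, and their summed level was 1353, 1844, 329 and 494 CPM in GSC1 and 1579, 972 and 906 CPM in GSC2. In each of the fits without these tumours 1 of the 12 fell. The part of dividing tumour cells in these slopes was not tested. Of the other cell type lists, 11 of 12 astrocyte genes rose, 1 of 12 myeloid, 5 of 10 endothelial (1 fell), 3 of 10 pericyte, 2 of 3 red cell, 2 of 7 muscle and 0 of 10 choroid plexus genes, and of 12 tumour stem cell genes 1 rose and 2 fell. Of the ribosomal protein genes, which are also short, the mitochondrial ribosome had 3 of 77 genes that rose (median 0.06) and the cytosolic ribosome 0 of 79, with 2 that fell (median -0.10). Their median transcripts were 1316 and 886 bases. Without the short-biased tumours the median slopes were -0.03 and -0.20.

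**Figure D5:**
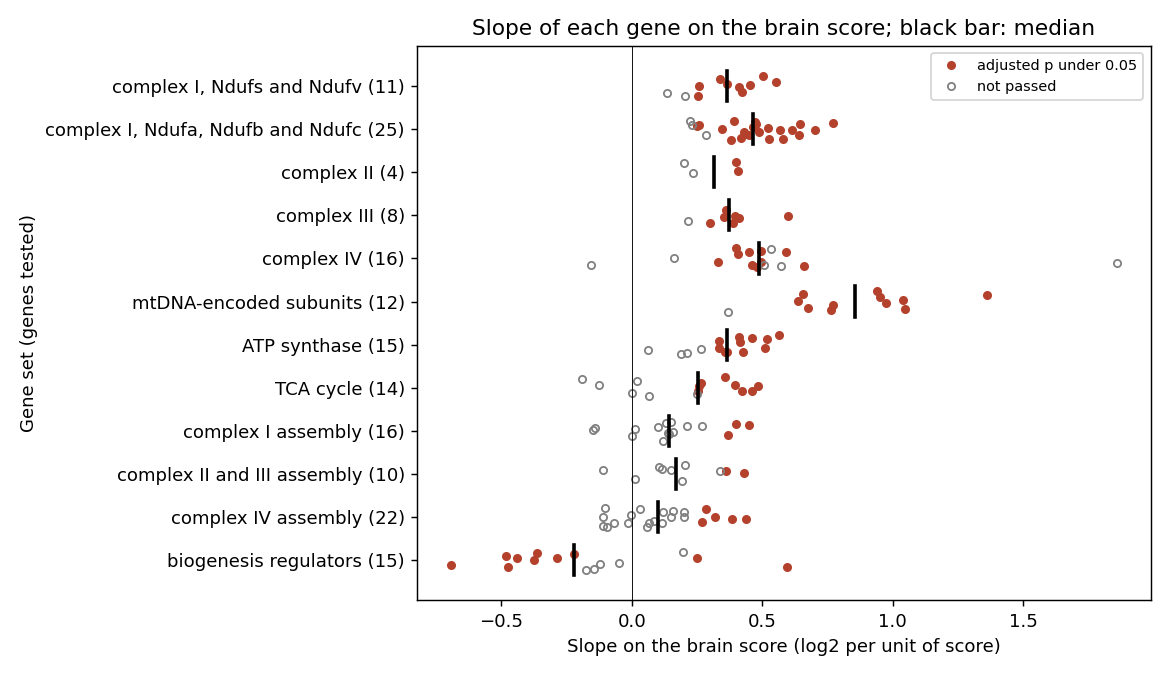
Slope of each tested gene on the brain score, in log2 per unit of score, by gene set, with the number tested in brackets. Filled points passed an adjusted p of 0.05, open points did not, and the black bar is the set's median. Complex I to IV sets have medians of 0.32 to 0.49, mitochondrial DNA 0.86 and the biogenesis regulators -0.22.

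At equal brain score no subunit gene passed the test for a line difference. In edgeR's quasi-likelihood fit with the score as a covariate, 0 of 64 passed, while 0.703% of all genes did. The smallest adjusted p of the 64 in that fit was 0.203, for Cox7b. The median was -0.31 against 0.04 over all genes, 61 of 64 values were below 0 (45.7% of all genes), and 7 of 64 had an unadjusted p under 0.05 (17.9% of all genes). Those 7 were Cox7b (-0.59), Uqcrc1 (-0.49), Cox5a (-0.50), Ndufv1 (-0.50), Ndufb8 (-0.53), Ndufb10 (-0.49) and, in the other direction, Cox6a2 (1.60). The median was -0.20 without the short-biased tumours, -0.14 without the hindbrain-rich ones, -0.15 without GSC2-2 and -0.55 without GSC2-3. Without the short-biased or the hindbrain-rich tumours, every GSC2 tumour left had a higher score than every GSC1 tumour left. Line and score cannot be told apart in those fits, so their medians compare no tumours of equal score. The score was measured in the same tumours, so this describes them and is no independent test.

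The counts of 14 members are uncertain. An exon of another gene overlaps Cox6a2, Ndufa2, Ndufa3, Ndufa13, Ndufb2, Ndufb5, Ndufb6, Ndufb8, Ndufb11, Ndufs1, Ndufs3, Ndufs6, Uqcrb and Uqcrc2, and the strand setting of the counting is not given in the sources used here. Many subunit genes have processed pseudogenes, and reads without a unique position, 12.8 to 21.0% of those listed in a library, were not assigned to genes.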

How the data were processed

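Per the labels' protocols, RNA of 7 tumours was isolated on RNeasy Plus Mini columns and sequenced from NEBNext Ultra libraries. The authors deposited raw read counts for each Ensembl gene. TopHat2 2.0.11 and HTSeq are the tools listed in the submitters' processing notes, together with the builds mm9 and dm3, whose roles are not stated. The strand setting and version of HTSeq are not known from the sources. Summary lines, 5 per table, were dropped. GENCODE annotation of GRCm38 supplied symbols for 32897 of 37620 identifiers, transcript lengths (97.2% of genes tested) and exon overlaps. No libraries were duplicates, since any pair differed beyond sampling noise (chi-square per degree of freedom 70.0 or higher).

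The counts were analysed with edgeR 4.0.16 in R 4.3.3 (TMM, filterByExpr, robust quasi-likelihood fit) on all 16068 genes kept, with Benjamini-Hochberg adjustment at 0.05. The 3 tests were line, slope on the brain score, and line with the score as covariate. Scores used log2 CPM with a prior count of 2. Alternatives used DESeq2 1.42.0, limma-voom (limma 3.58.1), RLE or upper-quartile factors, other filters on low counts, a length offset (loess, span 0.3), other scores, a replicate block, and tumours left out. The fit without the hindbrain-rich tumours (Hoxb5 above 10 CPM) was chosen after seeing the data. The members and the 11 marker and 8 pathway lists were chosen with earlier results of these data known. Promoter patterns are short cores, used in place of longer forms that had been searched first.

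Genes were named from a rule: all isoform genes, the 3 smallest p per complex and list for line and for score, and the highest and lowest per kilobase. Other genes named (Ndufs7, Sdhd, Ndufc2, Ttr, Aqp1, Actc1, Myh2, Nrf1, Ppargc1a, and those listed only as not passing, as overlapping another gene or at an unadjusted p under 0.05) were chosen after their values were seen. Values of 1 member are not reported here.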

Additional observations from a re-analysis of the deposited data

Results flagged for a closer look

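In line GSC1, 2 isoform genes of complex IV had 1 tumour far from the other 3. Cox6b2 was at 15.4 CPM in GSC1-4, and its gap to the next tumour was 0.863 of the whole range. Cox8b was at 1.90 CPM in GSC1-4, with a gap of 0.875 of the range. Both exceed Dixon's critical value for 4 samples. In all, 66 such sets of 4 values were examined, and chance flags about 1 in 20 of them. GSC1-4 also had the highest summed level of choroid plexus markers, 9149 CPM. GSC2-1, with 2214 CPM of these markers, had less Cox6b2 (2.54 CPM) than GSC1-2 and GSC1-3 (2.98 and 3.78 CPM). Those GSC1 tumours had 141 and 94.5 CPM of the markers. The part of choroid plexus in either gene was not tested.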

How the results depend on the processing

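The number of subunit genes that differed between the lines, with or without the score, was 0 under every alternative. Their median line difference, -0.27, was -0.17 with limma-voom, 0.22 without the 3 short-biased tumours, 0.49 without both hindbrain-rich tumours, and -0.59 to -0.07 with 1 tumour left out. At equal score the median, -0.31, was -0.20 without the short-biased tumours, -0.14 without the hindbrain-rich ones, and -0.55 to -0.15 with 1 tumour left out. Line and score could not be told apart in the fits without the short-biased or the hindbrain-rich tumours. For the slope, the count of 50 genes was 1 without the short-biased and 1 without the hindbrain-rich tumours, and 15 to 57 with 1 tumour left out. Its median, 0.42, was 0.16 without the short-biased tumours. These fits hold fewer samples, and no other cause was tested. Without the short-biased tumours the line difference changed sign for Ndufv1 (0.02), Ndufs1 (0.32), Ndufb8 (0.12), Ndufb10 (0.26), Ndufb6 (0.11), Sdha (0.35), Sdhc (0.02) and Uqcrh (0.31). Without the hindbrain-rich tumours it did so for Ndufv1 (0.29), Ndufs1 (0.27), Ndufb8 (0.41), Ndufb10 (0.52), Ndufb6 (0.59), Sdha (0.44), Sdhb (0.10), Sdhc (0.43), Uqcrc1 (0.21), Uqcrq (0.03), Uqcrh (0.70), Cox7b (0.21) and Cox5a (0.14). The slope of Cox6a2 was 0.59 and 0.42 in those fits and -0.69 to 0.19 with 1 tumour left out. That of Cox7a2l was -0.04 without the short-biased tumours. Of the other values of single genes, 811 slopes and 215 line differences kept their side of the threshold, 140 slopes lost the call and 21 gained it.

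With the replicate number as a block the median line difference was 0.01, that of Uqcrh was 0.00, and 0 of 64 genes passed. Deviations from the group mean correlated at 0.58, -0.31 and 0.41 between tumours of the same number. They correlated at 0.70 between GSC1-2 and GSC2-1, of different number and both of low brain score. Tumours of like score can correlate whatever their number, so these values do not decide whether the numbers mark pairs. With 18643155 reads or more per library, depth limits the isoform genes near 1 CPM.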
